A study of Mus musculus with 4 samples.

Results

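The genes described here are 9 mouse genes of intestinal sugar handling, 4 hexose transporters (Slc5a1, Slc2a1, Slc2a2 and Slc2a5), the sugar kinases Hk1, Hk2 and Khk, the phosphofructokinase regulator Pfkfb3 and the glucose-responsive transcription factor gene Mlxipl. They were selected on their log2 signals in these same 4 arrays, which were known when the genes were listed by name, and 12 probes on the array carry a RefSeq accession of one of them, out of 20886 genes that could be named. Because of that choice the values of the 9 genes are given as a description, and no test of them is offered as support. Ileum, the lower end of the small bowel, was sampled from C57BL/6J male mice aged 10 weeks: 2 samples came from mice given metformin by mouth at 1000 mg/kg and 2 from control mice. The labels name neither a vehicle nor the length of dosing, and do not say whether the samples of a group are separate animals, so the spread between them may be partly technical. Total RNA was labelled with Cy3 and each sample was hybridised to its own array, and the arrays are called metformin 1, metformin 2, control 1 and control 2 after the sample titles.

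Dietary glucose and galactose enter the enterocyte across the brush border with sodium through SGLT1, the product of Slc5a1, while fructose enters through GLUT5, the product of Slc2a5. Sugars leave the cell on the blood side mainly through GLUT2 (Slc2a2), and GLUT1 (Slc2a1) is the widespread transporter that feeds glucose to dividing and glycolytic cells. Inside the cell, hexokinases and ketohexokinase trap glucose and fructose by phosphorylation. Metformin, a glucose-lowering biguanide, is known to raise glucose uptake by the intestine in people who take it, which makes these genes a natural place to look in gut tissue.

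The 9 genes fell into patterns that did not follow treatment. Slc2a1, Hk2 and Pfkfb3 were high in metformin 2 and control 2 and low in metformin 1 and control 1, by factors of 4.72 to 8.92 between the lower of the high arrays and the higher of the low arrays. Slc5a1, Slc2a2, Slc2a5 and Khk were highest in metformin 1, while Hk1 ranged over 1.04 log2 units and Mlxipl varied least. In all 9 genes the ranges of the metformin and control arrays overlapped. Overlap was also the common case among the 21649 genes and transcripts tested, of which 12.3% were higher and 8.57% lower without overlap. The gap between metformin 1 and metformin 2 exceeded the difference between the group means in all 9 genes. That gap exceeded the group difference in 75.7% of all genes tested.

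Values are log2 signals relative to the array's own 75th percentile of all probes, so that 0 marks the 75th percentile and 1 unit a doubling; they compare arrays for a probe, not probes with each other. All 9 genes and all 12 probes passed the filter on dim probes, and 11 of the 12 were well above background on the 4 arrays. The error that the scanner software assigns to a spot was at most 10.5% of its signal for those 11 probes.

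**Figure D1:**
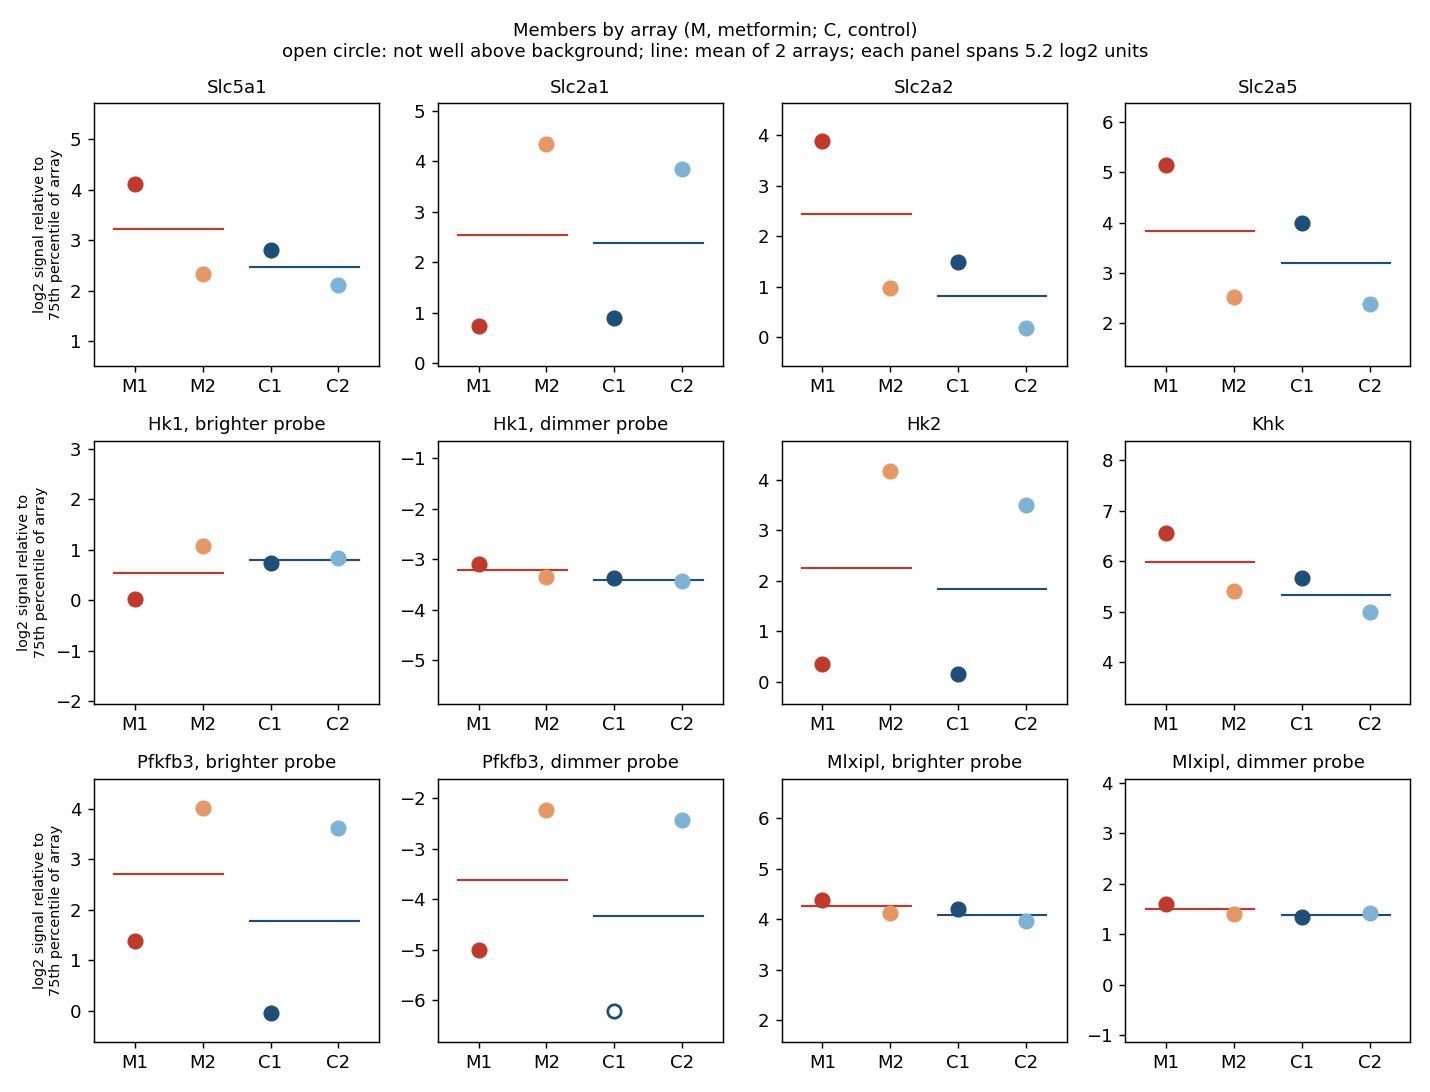
Log2 signal of each of the 12 probes relative to the array's 75th percentile, for metformin 1 and 2 (M1, M2) and control 1 and 2 (C1, C2); lines are means of 2 arrays and an open circle marks a spot not well above background. Slc2a1, Hk2 and both Pfkfb3 probes are high in M2 and C2, whereas Slc5a1, Slc2a2, Slc2a5 and Khk are highest in M1.

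Slc5a1, the gene of the sodium-coupled glucose transporter SGLT1, read 4.11 and 2.34 in metformin 1 and 2, against 2.82 and 2.12 in control 1 and 2. Metformin 1 stood 2.45-fold above the next array, control 1, and metformin 2 lay between the controls. The mean was 3.22 ± 1.25 with metformin and 2.47 ± 0.49 in controls (SD, n = 2 each), a difference of 0.75 (SE 0.69). Without metformin 1 the difference was -0.13.

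Slc2a2, which encodes GLUT2, had the widest group difference of the 9 genes and also a wide spread. It read 3.89 and 0.98 in metformin 1 and 2, against 1.48 and 0.17 in control 1 and 2. Metformin 1 was 5.33-fold above control 1, the next array, whereas metformin 2 lay between the controls. The group means, 2.44 ± 2.06 with metformin and 0.82 ± 0.93 in controls (SD, n = 2 each), differed by 1.62 (SE 1.11), and by 0.16 without metformin 1. A gap between the metformin arrays at least as wide as that of Slc2a2 was found in 1.27% of all genes tested.

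Slc2a5, the gene of the fructose transporter GLUT5, read 5.13 and 2.52 in metformin 1 and 2, against 4.0 and 2.39 in control 1 and 2. The order of the arrays was the same as for Slc5a1 and Slc2a2, with metformin 1 first, then control 1, metformin 2 and control 2. Metformin 1 exceeded metformin 2 6.12-fold, and control 1 exceeded control 2 3.06-fold. The group means differed by 0.63 (SE 1.07), and the sign turned to -0.68 without metformin 1 and to -0.18 without control 2.

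Khk, whose product ketohexokinase phosphorylates fructose, kept that order with smaller gaps. It read 6.56 and 5.42 in metformin 1 and 2, against 5.67 and 5.0 in control 1 and 2, so that metformin 2 again lay between the controls. The means of 5.99 ± 0.81 with metformin and 5.34 ± 0.47 in controls (SD, n = 2 each) differed by 0.66 (SE 0.52). Without metformin 1 the difference of Khk was 0.09, and without metformin 2 it was 1.23. When each array was scaled by its median in place of the 75th percentile, the groups of Khk and Mlxipl no longer overlapped.

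The order metformin 1, control 1, metformin 2, control 2 was shared by Slc5a1, Slc2a2, Slc2a5 and Khk and by the brighter Mlxipl probe. In 3 of the 9 genes (Slc5a1, Slc2a2 and Slc2a5) metformin 1 was at least 2-fold above each other array, as it was in 2.88% of all genes tested. Metformin 1 was the lowest array in 2 genes, Slc2a1 and Hk1, against 28.4% of all genes, and control 2 was the highest in 0 of 9, against 19.8%. Since the genes were chosen with these values known, nothing is read from those counts. As profiles over the 4 arrays, each centred on its own mean, Slc5a1 and Khk differed by a root mean square of 0.23 log2 units, Slc5a1 and Slc2a5 by 0.45 and Slc2a2 and Slc2a5 by 0.51.

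Slc2a1, the gene of GLUT1, showed another pattern. It read 0.74 and 4.35 in metformin 1 and 2, against 0.90 and 3.85 in control 1 and 2. Metformin 2 and control 2 were high and metformin 1 and control 1 low, with 12.2-fold between metformin 2 and metformin 1 and 7.76-fold between control 2 and control 1. The group means of 2.54 ± 2.55 with metformin and 2.38 ± 2.09 in controls (SD, n = 2 each) differed by 0.17 (SE 1.59), a small part of the spread within either group. The sign of that difference was negative in the deposited table taken without scaling, at -0.07. A gap between the controls as wide as that of Slc2a1 occurred in 1.11% of all genes tested.

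Hk2, the inducible hexokinase of muscle, fat and proliferating cells, behaved like Slc2a1. It read 0.35 and 4.17 in metformin 1 and 2, against 0.16 and 3.51 in control 1 and 2. The lower of the high arrays, control 2, was 8.92-fold above the higher of the low arrays, metformin 1. The difference of group means was 0.43 (SE 1.73). The profiles of Hk2 and Slc2a1 differed by a root mean square of 0.20, the closest of all pairs among the 9 genes.

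Pfkfb3, whose product makes the sugar bisphosphate that activates phosphofructokinase and so speeds glycolysis, was measured by 2 probes of different RefSeq transcripts. The brighter probe read 1.37 and 4.02 in metformin 1 and 2, against -0.05 and 3.61 in control 1 and 2. The dimmer probe read -5.01 and -2.24 in metformin 1 and 2, against -6.21 and -2.44 in control 1 and 2, and was not well above background in control 1. Both probes gave the same order of arrays, and after centring they differed by at most 0.17 on any array. Metformin 2 exceeded metformin 1 6.28-fold by the brighter probe, and control 2 exceeded control 1 12.6-fold. The group difference was 0.91 (SE 1.54) by the brighter probe and 0.70 by the dimmer.

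Metformin 2 and control 2 were each at least 2-fold above both other arrays in 3 of the 9 genes (Slc2a1, Hk2 and Pfkfb3), and in 2.43% of all genes tested; nothing is read from the count, for the reason given above. The 75th percentile of the processed signal before scaling was also higher in the arrays numbered 2, at 866 and 1072 in metformin 1 and 2, against 918 and 1454 in control 1 and 2, and its part in the pattern was not tested. With quantile normalization, which gives every array the same distribution, the count was again 3. Leaving out an array turned the group difference of these genes: without control 1 it was -1.31 for Slc2a1, -1.24 for Hk2 and -0.91 for Pfkfb3. Without metformin 1 the differences were 1.97, 2.34 and 2.24 in the same order of genes, without control 2 they were 1.65, 2.10 and 2.74, and without metformin 2 they were -1.63, -1.49 and -0.41.

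Promoter sequences of the genes of this pattern are shown because the 3 genes moved together across arrays and GLUT1 and Hk2 are textbook targets of the hypoxia-inducible factors. Each line runs from 250 bases before to 50 bases after an annotated start, 5′ to 3′ on the gene's strand, from RefSeq on GRCm38.p6. The windows are chr4:119108495-119108794, plus strand, for Slc2a1, chr6:82774405-82774704, minus strand, for Hk2 and chr2:11553880-11554179, minus strand, for the more upstream of the 2 starts of Pfkfb3. Capitals mark every match on either strand to ACGTG, the core of the hypoxia response element.
Slc2a1: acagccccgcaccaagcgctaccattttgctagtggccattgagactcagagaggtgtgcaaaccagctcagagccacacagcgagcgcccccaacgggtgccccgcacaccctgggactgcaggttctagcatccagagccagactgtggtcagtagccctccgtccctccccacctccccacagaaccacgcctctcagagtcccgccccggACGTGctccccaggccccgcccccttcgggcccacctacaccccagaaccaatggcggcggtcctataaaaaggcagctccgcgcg
Hk2: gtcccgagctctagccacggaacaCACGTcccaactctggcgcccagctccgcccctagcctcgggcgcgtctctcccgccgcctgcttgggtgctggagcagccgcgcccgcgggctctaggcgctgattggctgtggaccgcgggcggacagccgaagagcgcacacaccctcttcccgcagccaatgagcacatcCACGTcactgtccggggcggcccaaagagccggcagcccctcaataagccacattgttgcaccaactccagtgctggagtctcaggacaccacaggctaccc
Pfkfb3: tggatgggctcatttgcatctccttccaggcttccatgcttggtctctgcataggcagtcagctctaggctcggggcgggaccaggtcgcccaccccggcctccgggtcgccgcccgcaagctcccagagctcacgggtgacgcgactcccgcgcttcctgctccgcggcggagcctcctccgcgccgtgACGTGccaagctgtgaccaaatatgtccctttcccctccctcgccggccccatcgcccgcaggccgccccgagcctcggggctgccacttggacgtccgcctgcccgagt
ACGTG was found at -36 to -32 in Slc2a1, at -226 to -222 and -52 to -48 in Hk2 and at -60 to -56 in Pfkfb3, counted from the first base before the start. It was present in 19.6% of all 32851 promoter windows of this length. A match describes the letters in the window and does not show a bound site.

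The genes that were highest in metformin 1 are shown in the same way for comparison, at chr5:33103969-33104268, plus strand, for Slc5a1, chr3:28697653-28697952, plus strand, for Slc2a2, chr4:150119094-150119393, plus strand, for Slc2a5 and chr5:30921309-30921608, plus strand, for Khk. Capitals again mark ACGTG on either strand, and in Slc5a1 and Khk they span CACGTG, the E-box that ChREBP and other factors of its class can bind, which holds ACGTG on both strands.
Slc5a1: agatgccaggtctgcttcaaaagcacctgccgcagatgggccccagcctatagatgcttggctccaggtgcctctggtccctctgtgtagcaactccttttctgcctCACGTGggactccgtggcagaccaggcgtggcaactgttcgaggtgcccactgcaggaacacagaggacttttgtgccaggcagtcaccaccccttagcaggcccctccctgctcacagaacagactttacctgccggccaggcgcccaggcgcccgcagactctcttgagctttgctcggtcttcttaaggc
Slc2a2: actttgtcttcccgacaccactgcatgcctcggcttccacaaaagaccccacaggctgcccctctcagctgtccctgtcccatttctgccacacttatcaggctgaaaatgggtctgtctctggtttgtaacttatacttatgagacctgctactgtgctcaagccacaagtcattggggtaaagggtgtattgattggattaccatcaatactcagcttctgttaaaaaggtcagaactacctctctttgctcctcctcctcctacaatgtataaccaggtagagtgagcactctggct
Slc2a5: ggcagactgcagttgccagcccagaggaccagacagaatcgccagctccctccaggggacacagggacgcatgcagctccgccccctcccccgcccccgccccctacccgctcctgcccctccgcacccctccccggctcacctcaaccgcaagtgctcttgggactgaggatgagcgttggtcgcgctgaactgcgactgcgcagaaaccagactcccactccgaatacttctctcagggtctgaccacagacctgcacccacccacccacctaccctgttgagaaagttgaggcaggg
Khk: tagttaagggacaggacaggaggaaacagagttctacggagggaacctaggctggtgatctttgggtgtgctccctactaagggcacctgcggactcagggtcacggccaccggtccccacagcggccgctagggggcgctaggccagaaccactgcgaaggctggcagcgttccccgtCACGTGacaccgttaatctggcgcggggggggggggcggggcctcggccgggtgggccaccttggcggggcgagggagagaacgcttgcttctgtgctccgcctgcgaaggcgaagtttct
The E-box lay at -143 to -138 in Slc5a1 and at -71 to -66 in Khk. CACGTG was present in 7.15% of all promoter windows and in 4 of the 12 windows of the 9 genes. The genes with it were Slc5a1, Khk, Pfkfb3 (at its other start) and Mlxipl. The windows of Slc2a2 and Slc2a5 held no ACGTG. With 7 of the 9 genes holding ACGTG at some start, among them Slc5a1 and Khk, its presence did not separate the genes high in the arrays numbered 2 from those high in metformin 1. GTTAAT, a half-site of the epithelial factor HNF1, was found in Khk alone of the 9 genes and in 7.1% of all windows. TGACGTCA, the cAMP response element, and TGANTCA, the AP-1 site, both searched on both strands, were in no window of the 9 genes, and in 1.79% and 7.81% of all windows.

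Hk1, the hexokinase found in most tissues, varied less than Hk2. Its brighter probe read 0.03 and 1.07 in metformin 1 and 2, against 0.73 and 0.84 in control 1 and 2, so that metformin 1 was low and metformin 2 slightly above the controls. The difference of group means was -0.24 (SE 0.45), and it was 0.28 without metformin 1. The dimmer probe, of the same RefSeq transcript, read -3.09 and -3.35 in metformin 1 and 2, against -3.38 and -3.44 in control 1 and 2. It therefore gave a difference of the opposite sign, 0.19, with metformin 1 highest, and the direction of Hk1 depends on the probe.

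Mlxipl encodes ChREBP, the transcription factor that raises genes of fructose and glucose handling when sugar is plentiful. It was the steadiest of the 9 genes: its brighter probe read 4.39 and 4.13 in metformin 1 and 2, against 4.21 and 3.96 in control 1 and 2. The mean was 4.26 ± 0.18 with metformin and 4.08 ± 0.17 in controls (SD, n = 2 each), a difference of 0.17 (SE 0.30). The dimmer probe read 1.60 and 1.40 in metformin 1 and 2, against 1.34 and 1.42 in control 1 and 2, and differed by 0.12. In the deposited table taken without scaling the difference of Mlxipl was -0.06, where the all-gene median difference was -0.17, against 0.09 in that table scaled to the 75th percentile. From the processed signal it was 0.06 with the 75th percentile and 0.19 with the array median as scale. The profiles of Mlxipl and Khk differed by a root mean square of 0.42, and those of Mlxipl and Slc2a2 by 1.24.

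**Figure D2:**
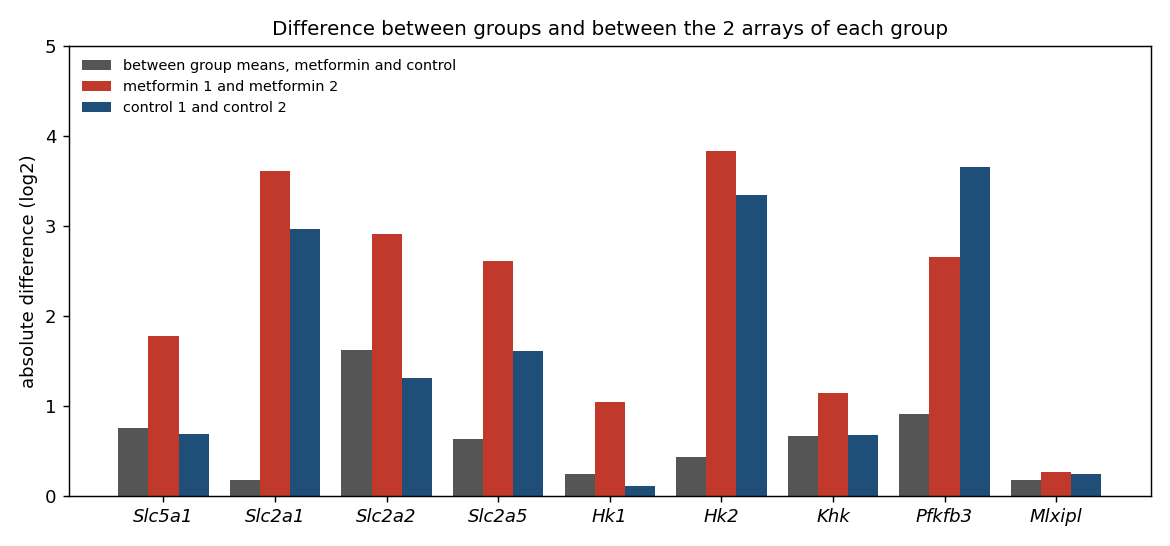
Absolute log2 differences for the 9 genes (brighter probe where there are 2): between the group means of metformin and control (grey), between metformin 1 and 2 (red) and between control 1 and 2 (blue). The red bar is above the grey bar in all 9 genes and the blue bar in 6 of them.

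Across all 21649 genes and transcripts, limma called 0 after Benjamini-Hochberg adjustment (0% of those tested, 347 at an unadjusted p under 0.05), and accordingly none of the 9 genes. Means were higher with metformin in 8 of the 9 genes, all but Hk1, and in 57.6% of all genes tested (lower in 42.4%), though in the deposited table without scaling Slc2a1 and Mlxipl were lower as well. That count was 5 of 9 without control 1 and 5 of 9 without metformin 2. Groups did not overlap in 0 of the 9 genes in either direction, against 12.3% of all genes that were higher and 8.57% that were lower without overlap. At least 2-fold changes without overlap numbered 136 higher (0.628%) and 502 lower (2.32%). Higher genes made up 21.3% of these, but 34% when arrays were scaled by their median, 10.1% with normexp background correction, 9.79% among probes well above background on every array and 2.16% in the deposited table without scaling. With 2 arrays against 2, an exact two-sided permutation test of a single gene cannot go below p = 0.333. The gap between the control arrays exceeded the difference between group means in 6 of the 9 genes, against 72.2% of all genes tested. The metformin arrays were at least 2-fold apart in 8 of the 9 genes and the control arrays in 5, against 20.7% and 16.2% of all genes.

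The other hexose transporters did not share a single pattern. Metformin 2 and control 2 were each at least 2-fold above both other arrays in 0 of 14, against 2.43% of all genes tested. They were above them by any margin in 3 of 14, against 27.7%. Of 16 listed genes 14 were measured; 9 had a higher and 5 a lower mean with metformin, the median difference was 0.31 against 0.06 over all genes tested, and 0 passed the adjusted test in limma. The median was -0.01 without metformin 1, 0.62 without metformin 2, 0.55 without control 1 and 0.17 without control 2. Metformin 1 was the highest array in 9 of the 14 and the lowest in 3, against 38.5% and 28.4% of all genes tested. It was at least 2-fold above each other array in 5 of the 14, against 2.88%. Slc5a4a, a relative of SGLT1, read 3.85 and 0.83 in metformin 1 and 2, against 1.92 and 0.50 in control 1 and 2, a difference of 1.13 (SE 1.15). Slc5a9, a mannose and glucose transporter, differed by 0.82 (SE 0.77), the inositol transporter Slc5a11 by 0.73 (SE 0.54) and Slc2a7, a relative of GLUT5, by 1.10 (SE 1.17). In each of these 4 genes metformin 1 was high and metformin 2 lay between the controls.

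Slc2a4, which encodes the insulin-responsive transporter GLUT4 of muscle and fat, was the only gene of the 4 pathway lists at least 2-fold changed without overlap. It read -4.48 and -4.65 in metformin 1 and 2, against 0.47 and -3.46 in control 1 and 2, a difference of -3.06 (SE 1.35) that did not pass the adjusted test. Control 1 alone was high, and without it the difference was -1.10. Smooth muscle markers moved with Slc2a4: all 8 measured were lower with metformin, against 42.4% of all genes tested. Of the 8, 7 were at least 2-fold lower without overlap, against 2.32% of all genes. The summed level of the 8, in units of the array's 75th percentile signal, was 5.34 and 6.29 in metformin 1 and 2. In control 1 and 2 it was 137 and 7.7. Adipocyte markers were also lower with metformin in 6 of 7, 5 of them at least 2-fold without overlap, against 42.4% and 2.32% of all genes. The adipocyte markers had a median difference of -2.97. Unlike Slc2a4, they were not high in control 1 alone. Centred on the control mean, their median was -0.47 in control 1 and 0.47 in control 2. The summed level of the adipocyte markers was 23 and 6.92 in metformin 1 and 2, against 12.9 and 12.4 in control 1 and 2. It does not show the lower values with metformin because it is mostly the signal of Cidec. Cidec was the 1 marker with a higher mean, named after its values were seen. The part of muscle or fat in the value of Slc2a4 was not tested, and in tissue RNA fewer cells of a type cannot be told apart from less RNA per cell.

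The other sugar kinases, phosphatases and hexose enzymes were closer to level. Of 24 measured among 26 listed, 15 were higher and 9 lower, 0 passed the adjusted test and the median difference was 0.16 (0.01 to 0.24 on leaving out an array), against 0.06 over all genes. Slc37a4, the transporter that carries glucose phosphate into the endoplasmic reticulum, differed by 0.54 (SE 0.57) and Tkfc, the triokinase that follows Khk in fructose breakdown, by 0.44 (SE 0.42). Pfkfb1, a relative of Pfkfb3, differed by -0.50 (SE 0.34) without overlap, and the ADP-dependent glucokinase gene Adpgk by -0.49 (SE 0.65). Metformin 1 was at least 2-fold above each other array in 0 of the 24.

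ChREBP partners and targets included Khk, Slc2a2 and Slc2a5, so the list is not independent of the genes above. Of 15 measured among 16 listed, 12 were higher and 3 lower, against 57.6% of all genes that were higher, with a median difference of 0.25 and 0 past the adjusted test in limma. The median was -0.01 without metformin 1, 0.51 without metformin 2, 0.65 without control 1 and 0.02 without control 2, and 0.00 in the unscaled deposited table. Metformin 1 was the highest array in 8 of the 15, against 38.5% of all genes, and 3 of the 8 are Khk, Slc2a2 and Slc2a5. The hypoxia-inducible factor targets were examined beside Slc2a1, Hk2 and Pfkfb3, which belong to that class in many cells. Of 17 measured among 18 listed, 12 were higher and 5 lower with metformin, the median difference was 0.19 (0.06 to 0.12 on leaving out an array) and 0 passed the adjusted test. Metformin 2 and control 2 both lay above the other arrays in 6 of the 17, against 27.7% of all genes tested.

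Within the hypoxia list the arrays numbered 2 were at least 2-fold above the others for 2 of 17 genes, against 2.43% of all genes tested. The 2 were Adm and Ddit4, named after their values were seen. Adm, a vasodilator peptide gene, read -1.84 and 1.05 in metformin 1 and 2, against -1.09 and 0.79 in control 1 and 2. Ddit4, a stress-induced inhibitor of mTORC1, read 3.07 and 4.76 in metformin 1 and 2, against 2.73 and 4.41 in control 1 and 2. Other targets ran the opposite way. The lactate exporter gene Slc16a3 read 2.88 and 0.38 in metformin 1 and 2, against 2.15 and -0.16 in control 1 and 2, and Ankrd37 read 0.56 and -1.41 with metformin, against 0.42 and -2.35 in controls. Egln3, an oxygen-sensing hydroxylase gene, and Bnip3, a mitophagy receptor gene, differed by 0.53 (SE 0.60) and 0.42 (SE 0.62) and were also lowest in control 2.

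**Figure D3:**
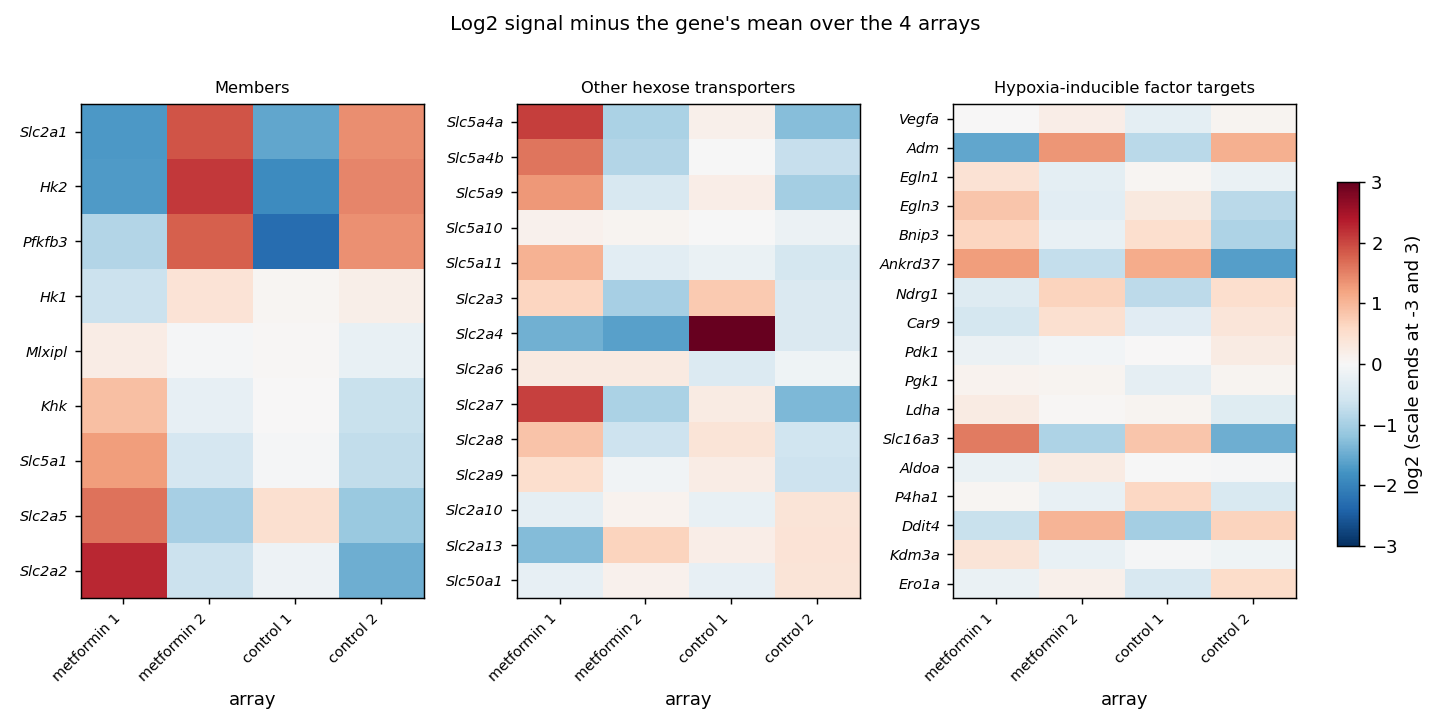
Colour shows the log2 signal of each gene minus its own mean over the 4 arrays, for the 9 genes, the other hexose transporters and the hypoxia-inducible factor targets. Slc2a1, Hk2 and Pfkfb3 are red in metformin 2 and control 2, Slc2a4 is red in control 1 alone, and the hypoxia targets show both directions.

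The genes most like Slc2a1 over the 4 arrays, by root mean square distance among 14545 named genes well above background throughout, were Dusp1 at 0.12, Rasd1 and Smim3 at 0.14, Paqr8 at 0.22 and Plk3 at 0.24. Dusp1, a phosphatase of MAP kinases, read -1.19 and 2.57 in metformin 1 and 2, against -0.73 and 2.21 in control 1 and 2. Those nearest to Hk2 were Prrg4 at 0.11, Phlda1 at 0.13, Hs3st1 at 0.18, S100a14 at 0.24 and Rasd1 at 0.25. Pfkfb3 was nearest to Ccl17 at 0.16, Tnfrsf12a at 0.22, S100a14 at 0.27, Csrnp1 at 0.32 and Ccl3 at 0.36. Rasd1 and S100a14 thus stood near more than 1 of these genes.

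Slc5a1 was nearest to Lpgat1 at 0.01, Tmem263 and Entpd7 at 0.04 and Vwce and 1700081H04Rik at 0.06. Slc2a2 was nearest to Ccl5 at 0.11, Lhx9 at 0.12, Gm8884 at 0.20, Cd209a at 0.22 and Otop3 at 0.23. Slc2a5 was nearest to Ltb4r1 at 0.04 and to Capn3, Tnfsf13b and the peptide transporter gene Slc15a1 at 0.06, and Pramel29 followed at 0.07. Khk was nearest to Mcoln3 at 0.04, Sypl2 and Pipox at 0.05, and the aminotransferase gene Gpt and C2cd4c at 0.06. Hk1 was nearest to Tspan9 at 0.03, Asah1 at 0.04, Bcam and Gfra3 at 0.05 and Rnf149 at 0.06. With 4 arrays a short distance is a description of these samples and is easily met, as the small values show.

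Region and cell type markers differed between the arrays alongside the transporters. Of 8 genes typical of the proximal small intestine, 6 were highest and 2, Slc40a1 and Cybrd1, lowest in metformin 1. Over all genes tested the shares were 38.5% and 28.4%. The summed level of the 8 was 860 and 89.9 in metformin 1 and 2, against 196 and 122 in control 1 and 2. It is mostly the signal of Fabp1 and Lct. Of 5 genes typical of the distal ileum, 3 (Slc10a2, Fabp6 and Fgf15) were lowest in metformin 1 and 2 (Cubn and Amn) were highest there. The genes of both lists were named after their values were seen. The summed level of the 5 was 166 and 553 in metformin 1 and 2, against 652 and 418 in control 1 and 2. It is mostly the signal of Fabp6, except in metformin 1, where it is mostly that of Cubn and Amn. Markers of both regions moved in the same array as Slc5a1, Slc2a2, Slc2a5 and Khk. The part of these markers in the values of those genes was not tested.

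Enterocyte markers were higher with metformin in 8 of 8, against 57.6% of all genes tested. Their summed levels were 1840 and 1330 in metformin 1 and 2, against 1560 and 1040 in control 1 and 2. That order of arrays, metformin 1, control 1, metformin 2 and control 2, was also the order of Slc5a1, Slc2a2, Slc2a5, Khk and Mlxipl, and the part of enterocyte content in it was not tested. T cell markers were highest in metformin 1 in 8 of 8, against 38.5% of all genes tested. Their summed levels were 23.1 and 2.78 in metformin 1 and 2, against 4.29 and 2.19 in control 1 and 2. Crypt and cycling cell markers, relevant to Slc2a1 and Hk2 as genes of dividing cells, had summed levels of 5.7 and 10.2 in metformin 1 and 2, against 12.1 and 14.7 in control 1 and 2. Endothelial markers, another site of GLUT1, were lower with metformin in 4 of 6, against 42.4% of all genes tested. All 4 were at least 2-fold lower without overlap, against 2.32%. The endothelial markers had a median difference of -1.13. Their summed level, 5.09 and 3.76 in metformin 1 and 2, against 5.27 and 3.61 in control 1 and 2, is mostly the signal of Kdr, named after its values were seen. Metformin 2 and control 2 both exceeded both other arrays in 2 of the 5 crypt and cycling markers, against 27.7% of all genes tested. These were Top2a and Ccnb1, named after their values were seen. Top2a met the order narrowly, with -0.34 in metformin 2 against -0.50 in control 1. None of the endothelial markers (0 of 6) had that order. The part of cycling cells in the values of Slc2a1, Hk2 and Pfkfb3 was not tested.

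The other marker lists were examined for admixed tissue. Fibroblast markers were lower with metformin in 8 of 8, against 42.4% of all genes tested. All 8 were at least 2-fold lower without overlap, against 2.32%. Their summed levels were 8.2 and 4.29 in metformin 1 and 2, against 35.6 and 17.3 in control 1 and 2. The summed levels of B and plasma cell markers were 14.8 and 7.35 with metformin, against 11.5 and 11.8 in controls. Those of macrophage and neutrophil markers were 68.6 and 59.7 with metformin, against 57.1 and 59.6 in controls. The latter sum is mostly the signal of Csf3r, named after its values were seen. Of the 5 macrophage and neutrophil markers measured, 4 had a higher and 1 a lower mean with metformin. Without overlap 3 were higher, against 12.3% of all genes tested, 1 of them at least 2-fold, against 0.628%. Erythrocyte markers summed to 25.7 and 11.5 with metformin, against 7.8 and 18.6 in controls. Exocrine pancreas markers, of which 2 of 6 listed were measured, had low sums of 0.113 and 0.136 with metformin, against 0.084 and 0.11 in controls. Of the 2, Ctrb1 was well above background on all 4 arrays and Cela3b on 2. Prss2 and Pnlip were not well above background on any array.

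**Figure D4:**
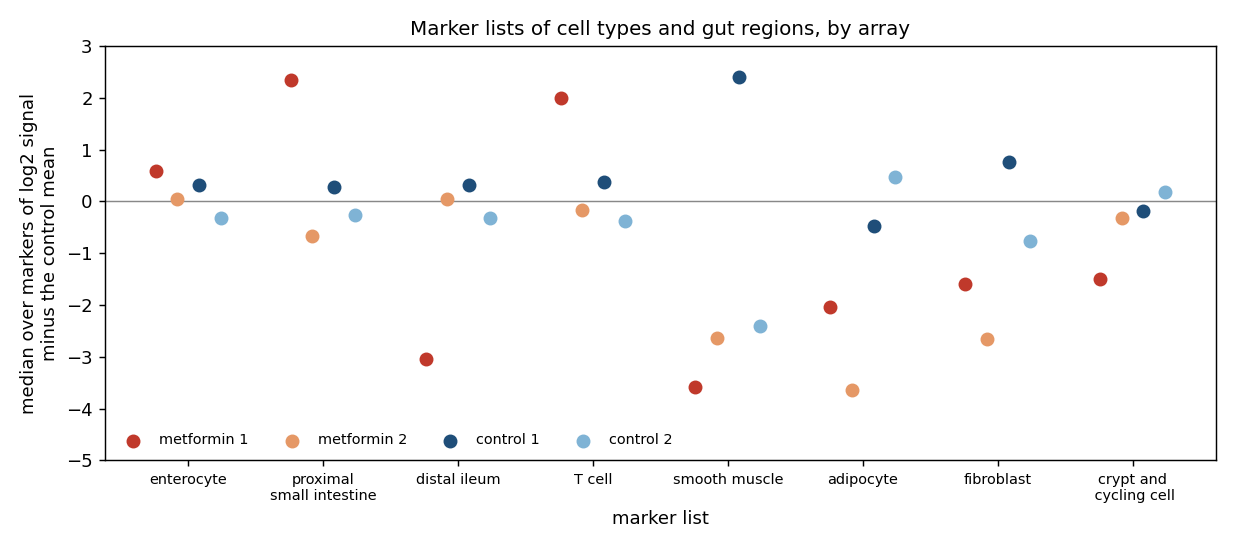
For each array, the median over the markers of a list of log2 signal, centred on the mean of the 2 controls. Proximal small intestine markers stand at 2.35 and distal ileum markers at -3.05 in metformin 1, and smooth muscle markers at 2.40 in control 1.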

How the data were processed

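Ileal total RNA of 2 metformin and 2 control samples was measured on 4 single-colour arrays. The scanner files hold linear spot intensity produced by Agilent Feature Extraction 10.7.3.1, whose headers list spatial and multiplicative detrending statistics. Per the file headers the arrays shared 1 slide and 1 scan, with metformin at positions 3 and 4 and controls at positions 1 and 2, so position and treatment cannot be told apart. The table that the authors deposited under the name normalized held, for all 39030 probes with a single spot, the raw median intensity, and served only as an alternative.

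From the processed signal, log2 values were taken, spots marked as outliers were left out, spots of a probe were averaged and the 75th percentile over the 39429 probes was subtracted. Accessions were matched to RefSeq symbols of GRCm38.p6. Probes had to be well above background throughout at least 1 group (26441 probes), and the brightest probe of a gene was tested by a linear model with moderated variance (R 4.3.3, limma 3.58.1; Benjamini-Hochberg threshold 0.05, two-sided), checked on simulated data. No mean spot signal was at hand, so the normexp alternative (offset 50) used the median signal. The 75th percentile signal was 866 and 1072 in metformin 1 and 2, against 918 and 1454 in controls 1 and 2, and 65.2% to 69.1% of probes were well above background; the small number of arrays limits the precision.

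The members, the 4 pathway lists and the 13 marker lists were chosen with earlier results of these data known. Named besides the members were, from each pathway list, genes at least 2-fold changed without overlap and up to 4 others of largest difference well above background on every array, and for each member with a range of at least 1 log2 unit the 5 nearest genes.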

Additional observations from a re-analysis of the deposited data

How the results depend on the processing

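In limma 0 genes passed the adjusted threshold under each of the 15 alternatives (114 to 1566 at an unadjusted p under 0.05), and the counts of members high in the arrays numbered 2 and of members high in metformin 1 stayed at 3 and at 3 to 4 under the 11 that kept all arrays. Of 135 recomputed differences of the 9 genes 12 took the opposite sign, 10 of them on leaving out an array. The genes at least 2-fold higher and lower without overlap (136 and 502) numbered 13 and 116 with normexp, 22 and 198 in the deposited table after scaling and 317 and 817 without a filter on dim probes. The higher ones numbered 212 with the array median as scale, 10 in the unscaled deposited table and 42 among probes well above background on all arrays. Leaving out an array gave 350 to 1537 higher and 855 to 1779 lower, 5 to 7 members with a higher mean and 2 to 7 members without overlap; with a single array in a group, non-overlap is easier to meet, and the lone array is assumed to vary like the other group.

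With the array median as scale 2 members did not overlap, and the all-gene median was 0.19, against 0.06. The median of the other kinase and hexose enzymes (0.16) was 0.29 there, -0.10 in the unscaled deposited table and 0.01 to 0.24 on leaving out an array. The median of the hypoxia targets (0.19) was 0.11 with quantile normalization, 0.32 with the array median, -0.09 in the unscaled and 0.17 in the scaled deposited table, 0.16 with the mean over probes and 0.06 to 0.12 on leaving out an array. The causes were not tested.

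Replicate numbers are shared by the groups, but the labels do not say that they pair samples. Across genes the deviations of same-numbered samples correlated at r = 0.563. With the replicate number as a block in limma 0 genes passed, and 1566 against 347 had an unadjusted p under 0.05. The differences of the members were as before. Dim signal limits the second Pfkfb3 probe, whose error in control 1 was 25.9% of its signal.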
